A study of Mus musculus with 12 samples.

Results

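The genes described here are the nuclear receptor genes of the mouse, taken by symbol from a list of 46. Of these, 44 had a row under their symbol among the 18784 named genes (21212 probe sets) of the arrays, each with 1 probe set. Nr1h2 and Nr2e3 had no such row and were not analysed here. RNA of the liver was measured in 12 mice with 1 Affymetrix whole-transcript array each. The groups were 3 females and 3 males of the strain labelled KK/HIJ (KK/J in another label, called KK here) and 3 females and 3 males of C57BL/6J. All mice ate chow, were 8 weeks old, had been housed singly for 3 days and had been fasted for 4 hours when they were killed. After perfusion with PBS the large lobe stood in RNAlater for 24 hours and was then frozen, and 300 ng of total RNA was labelled. No mouse carried a transgene or received a treatment according to the labels, so the comparisons are between strains and between sexes.

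Nuclear receptors are transcription factors, most of which bind DNA directly. In most cases they respond to a small lipid-soluble ligand such as a steroid, thyroid hormone, retinoic acid, a bile acid, an oxysterol or a fatty acid. Many of them bind as a pair with a retinoid X receptor, and they recruit coactivators or corepressors that set the activity of the target gene. In the liver they govern bile acid synthesis, lipid oxidation and storage, glucose production, drug metabolism and the sex difference in many enzymes. A receptor's transcript level is one input to its activity, besides ligand, localisation and cofactors, none of which was measured.

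Values are the deposited log2 expression values, on which a difference of 1 is a 2-fold change, and a level of one gene is not set against that of another because probes differ in brightness. The arrays resembled each other closely, with medians of 5.9 to 6.03 and correlations of 0.992 to 0.996 within groups and 0.975 to 0.993 between groups. Xist was at 10.29 to 10.95 in the 6 arrays labelled female and at 4.21 to 4.70 in the 6 labelled male, and Eif2s3y, Uty and Kdm5d ran the opposite way, so all 12 labels held. In the female arrays these 3 Y-linked genes gave values of 3.79 to 4.66. Values up to the highest of these are called within the level of absent transcripts. Because probes differ in brightness, a value above that level does not show that a transcript was present. For 3 exocrine pancreas markers, for example, the mean level was 5.81 to 6.07 in all arrays. The mean level of 9 hepatocyte markers was 12.89 to 13.05 in all arrays. Of these, 2 rose and 1 fell in KK females, and 1 fell in KK over both sexes. In males 1 rose in KK and over both strains. Over all probe sets 6.5%, 11.7%, 2.17% and 3.66% were called in these comparisons, in that order. Apoa1, Ttr, Pck1 and Tat are also in the lists of related genes below. Whole liver also holds other cells, and fewer cells of a type and less RNA per cell cannot be told apart in such samples. Of 2 measured erythroid markers, Alas2 and Slc4a1 both rose in KK and Alas2 rose in males over both strains, and their mean level was 7.12 to 7.36 in C57BL/6J females, 7.98 to 8.10 in C57BL/6J males, 8.26 to 8.36 in KK females and 8.44 to 8.65 in KK males. Their part in the differences given here was not tested. Each p-value was adjusted over all 21212 probe sets, and a gene was called at an adjusted p under 0.05. Calls are those of the fit with equal array weights to the values as deposited, unless another setting is named.

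Most nuclear receptor transcripts differed little between the strains. Over both sexes 5 of the 44 were called (11.4%), against 11.7% of all probe sets. Rara and Thra rose in KK (5.42% of all probe sets rose), and Nr1i3, Nr2c1 and Hnf4g fell (6.31% of all fell). The 95% interval of the difference lay within 0.5 log2 units of 0, a 1.41-fold change, for 42 of the 44, the exceptions being Pparg and Nr0b2, and 0 members reached a 1.5-fold difference. The median size of the difference was 0.08 over the members and 0.07 over all probe sets. Within 1 sex the calls were fewer. In females only Hnf4g was called and it fell (6.5% of all probe sets were called and 3.31% fell), and without any one of C57BL/6J female 1, 2 or 3 or of KK female 2 or 3 the count was 0, while without KK male 3 it was 2. In males 0 were called by limma (5.15% of all were), with a smallest adjusted p of 0.0578, that of Nr2c1. That count was 1 without C57BL/6J female 2 or 3, which enter through the shared estimate of spread, and it was 2 after quantile normalization and 5 with array weights or with the spread of each array (its interquartile range) as a covariate.

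**Figure D1:**
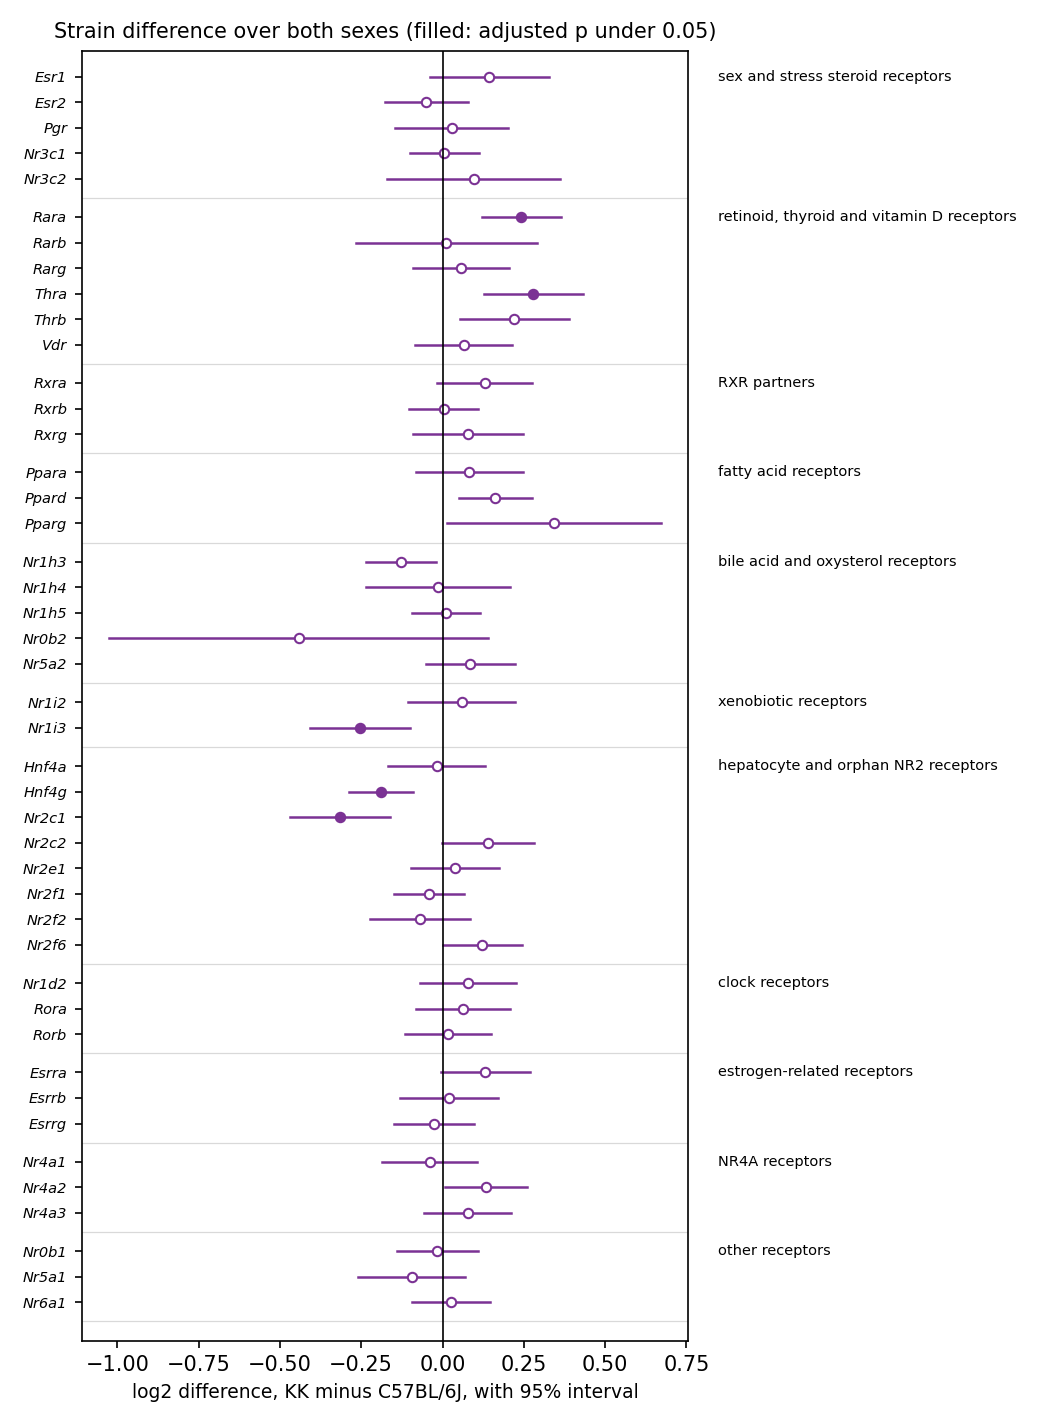
Difference between KK and C57BL/6J over both sexes for the 44 receptors, ordered by role. The x axis is the log2 difference, points are limma estimates, lines are 95% intervals and filled points had an adjusted p under 0.05. The 5 filled points are Rara and Thra to the right and Nr1i3, Nr2c1 and Hnf4g to the left, and the widest line is that of Nr0b2.

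Between the sexes, the receptors changed in few members as well. Males had lower Esr1 and Rarb in C57BL/6J (2 of 44, with 1.03% of all probe sets called and 0.674% lower), lower Esr1 in KK (1 of 44, with 2.17% of all called and 1.47% lower), and lower Esr1 and Nr1i3 over both strains (2 of 44, with 3.66% of all called and 2.57% lower). No receptor rose in males in any of these 3 comparisons. The values of the sexes did not overlap for 9 of the 44 in C57BL/6J and for 9 in KK, against 13.1% and 18.6% of all probe sets. The count in C57BL/6J was 1, Esr1, without any 1 of the 6 C57BL/6J arrays, KK female 2 or KK male 1, and the count over both strains was 1 without any one of KK female 1 or 2, KK male 1 or 2, C57BL/6J male 1 or 2, or C57BL/6J female 2 or 3. The interaction of strain and sex is the KK minus C57BL/6J difference of males less that of females. It passed the test for 0 of 44 by limma (0.141% of all passed), with a smallest adjusted p of 0.194, that of Rarb.

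**Figure D2:**
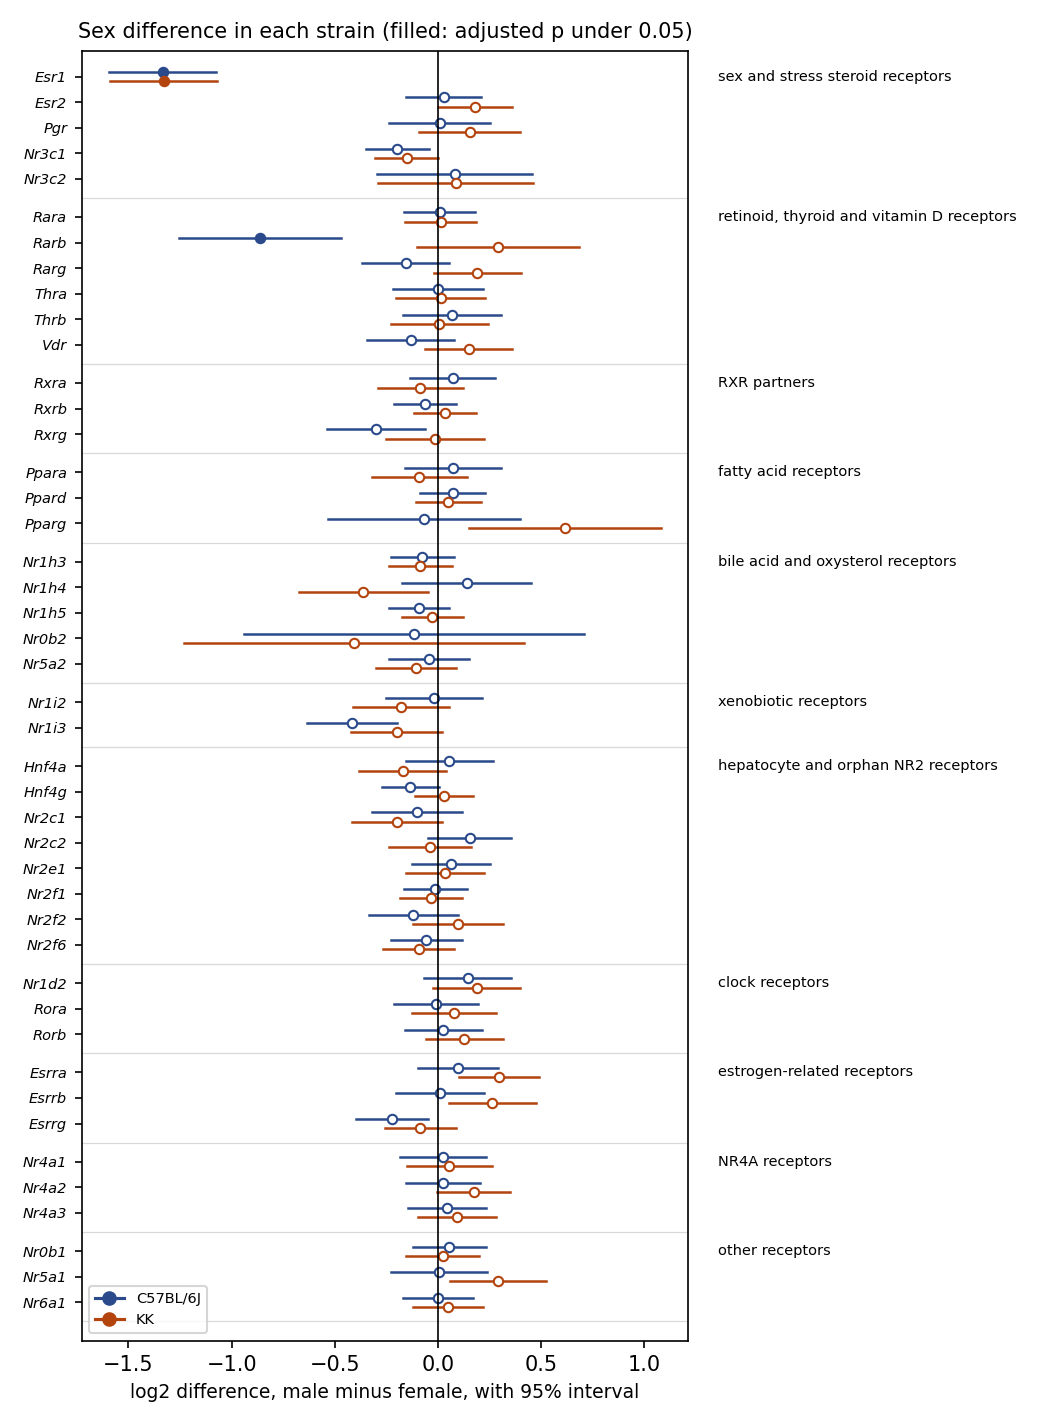
Difference between males and females in each strain for the 44 receptors, with limma estimates, 95% intervals and filled points where the adjusted p was under 0.05. Esr1 stands at -1.33 in both strains, Rarb at -0.86 in C57BL/6J and 0.29 in KK, and Pparg at -0.07 in C57BL/6J and 0.61 in KK.

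Among the steroid receptors, Esr1 showed the largest sex difference of the 44 genes, and it was lower in males of both strains. Esr1 encodes estrogen receptor alpha, the main estrogen receptor of the liver, and lies on chromosome 10 from 4611989 to 5005633 (GRCm38.p6). C57BL/6J females had Esr1 values of 8.61, 8.62 and 8.60. C57BL/6J males had 7.23, 7.53 and 7.07. KK females had 8.77, 8.83 and 8.66, and KK males had 7.43, 7.21 and 7.62. All 6 females lay above all 6 males, and the gap between them was wider than the range within either sex. The sex difference in Esr1 was -1.33 in C57BL/6J (SE 0.12, limma, adjusted p 7.5e-05) and -1.33 in KK (SE 0.12, limma, adjusted p 0.000111), and over both strains males were 2.52-fold lower (limma, adjusted p 2.72e-06). By p it had rank 16 among all 21212 probe sets in the sex comparison over both strains. The strain difference in Esr1 was 0.14 (95% interval -0.04 to 0.33, limma, adjusted p 0.37), and the sex differences of the strains differed by 0.00 (95% interval -0.36 to 0.37).

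The other steroid receptors were not called in any comparison of the fit with equal weights. Nr3c1, the glucocorticoid receptor, stood in males and females at 8.97 ± 0.03 against 9.17 ± 0.09 in C57BL/6J and 9.0 ± 0.07 against 9.15 ± 0.08 in KK (SD, n = 3). The 6 female values of Nr3c1 all lay above the 6 male values, which held for Esr1 and Nr3c1 among the 44 and for 1.59% of all probe sets, but the difference over both strains of -0.17 was not called (limma, adjusted p 0.0801). Nr3c2, the mineralocorticoid receptor, had group means of 6.89 to 7.07, and Pgr, the progesterone receptor, 5.28 to 5.44. Esr2, the second estrogen receptor gene, had means of 4.38 to 4.56, within the level of absent transcripts, and was called between the sexes of KK with array weights.

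Genes linked to these receptors were called as follows, beside 11.7% of all probe sets between the strains and 3.66% between the sexes. In a list of 7 genes related to estrogen and progesterone receptors, 2 were called between the strains and 3 between the sexes over both strains. Tff3, a mucosal peptide, rose in males by 0.66 over both strains (limma, adjusted p 0.00517). Stat5b, which relays the growth hormone signal, fell by 0.41 in males and Igf1, its secreted growth factor target, fell by 0.30. In KK against C57BL/6J, Stat5b fell by 0.31 and Igf1 rose by 0.22, the latter call being lost without KK female 3, KK male 1 or 3, any C57BL/6J male or C57BL/6J female 2. Of 15 glucocorticoid receptor targets, 7 rose and 0 fell in KK females by limma (median difference 0.58), where 6.5% of all probe sets were called. In KK males 0 rose and 2 fell (median -0.03), where 5.15% of all were called. In females the leading genes were Sgk1 (0.85), a serum-induced kinase, Tsc22d3 (1.10), the leucine zipper protein GILZ, Per1 (0.79), a clock repressor, and Pck1 (0.58), which commits carbon to glucose production. In males Zbtb16 (-1.24), a zinc finger repressor, and Fkbp5 (-1.49), a chaperone that dampens the receptor, fell. Of the 15, 1 passed the test of the interaction, Tsc22d3 at -1.35 (limma, adjusted p 0.0372), beside 0.141% of all probe sets. The list's median interaction was -0.55, against 0.02 over all probe sets. Over both sexes 3 rose and 2 fell. The count that rose over both sexes was 5 without C57BL/6J female 1, and the count that fell was 1 without KK male 1, KK female 2, or C57BL/6J female 1 or 3. Of 18 genes of steroid, oxysterol and vitamin D handling, Cyp46a1 (2.42), a cholesterol hydroxylase, and Cyp7b1 (0.92), an oxysterol hydroxylase, rose in KK, and 5 fell, among them Serpina6 (-0.71), which encodes corticosteroid-binding globulin, Cyp27a1 (-0.40), the sterol 27-hydroxylase, and Akr1d1 (-0.60), the steroid reductase of bile acid synthesis. In males Cyp7b1 rose by 1.90, and Serpina6, Akr1d1 and Cyp46a1 fell, the latter count being 1 without KK female 1, KK male 2, or replicate 2 of either C57BL/6J sex.

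Among the retinoic acid receptors, Rarb was lower in males of C57BL/6J, while no sex difference was called in KK. Rarb encodes retinoic acid receptor beta, whose gene is known to be induced by retinoic acid through a direct repeat in its own promoter. The gene lies on the minus strand of chromosome 14 from 16430839 to 17082331 (GRCm38.p6). The sequence of the 250 bases before 1 of its starts (RefSeq, GRCm38.p6, chr14:16575477-16575726, minus strand) is shown because it was the only one among 61 windows of 40 receptor genes that held a direct repeat of the kind searched. The capitals mark the repeat.

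Rarb: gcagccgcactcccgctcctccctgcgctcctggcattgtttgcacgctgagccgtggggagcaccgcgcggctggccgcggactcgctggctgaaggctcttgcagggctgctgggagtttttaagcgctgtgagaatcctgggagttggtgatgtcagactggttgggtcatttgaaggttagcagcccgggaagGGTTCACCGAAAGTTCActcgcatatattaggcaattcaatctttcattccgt

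The repeat, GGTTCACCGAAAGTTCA, lies 53 to 37 bases before the start and has a spacer of 5 bases. The 6-letter sites searched were AGGTCA, the close form GGGTCA, the close form AGTTCA, and GGTTCA, which joins their changes. Any pair of these was taken as a direct repeat with spacers of 1 to 5 bases on both strands. Repeats with a spacer of 5 bases were in 0.0883% of the 32851 windows of all genes, and those with spacers of 1, 2, 3 and 4 bases in 0.164%, 0.174%, 0.0396% and 0.067%. A match describes the letters of this window and was not tested for binding.

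The 3 C57BL/6J females had the higher Rarb values, at 6.92, 6.78 and 7.19, and the C57BL/6J males had 5.94, 6.21 and 6.14. KK females had 6.62, 6.46 and 6.11, and KK males 6.50, 6.45 and 7.11. The sexes did not overlap in C57BL/6J and overlapped in KK. Rarb fell by 0.86 in C57BL/6J males, a 1.82-fold difference (SE 0.18, limma, adjusted p 0.0448). This call was narrow. The adjusted p was 0.0603 to 0.183 without any 1 of the 6 C57BL/6J arrays, KK female 2 or KK male 1. In KK the sex difference in Rarb was 0.29 (95% interval -0.10 to 0.68, limma, adjusted p 0.452). KK females lay below C57BL/6J females with no overlap (-0.57, limma, adjusted p 0.096) and KK males above C57BL/6J males with no overlap (0.59, limma, adjusted p 0.0923), and neither difference was called. Without KK male 3, the female difference had an adjusted p of 0.0317, and with array weights 0.0199. Array spread as a covariate brought the differences in both females (0.0156) and males (0.0112) past the threshold. With no overlap stood 11 of the 44 receptors in females and 12 in males, against 20.6% and 21.7% of all probe sets. The interaction for Rarb was 1.16 (SE 0.26, 95% interval 0.60 to 1.71), with an unadjusted p of 0.000685 and an adjusted p of 0.194 by limma. It passed the threshold with array spread as a covariate (adjusted p 0.0239).

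Rara and Thra rose together in KK. Rara encodes retinoic acid receptor alpha, Thra thyroid hormone receptor alpha, and the genes lie 158.8 kb apart on chromosome 11 (Thra from 98740776 to 98769006, Rara from 98927800 to 98974942). C57BL/6J mice had Rara values of 6.89, 6.73 and 6.77 in females and 6.84, 6.76 and 6.82 in males. KK mice had 7.20, 6.99 and 6.93 in females and 7.06, 7.11 and 6.98 in males. All 6 KK values lay above all 6 C57BL/6J values, and Rara was 1.18-fold higher (0.24, SE 0.06, limma, adjusted p 0.0136). Thra was at 6.56, 6.33 and 6.61 in C57BL/6J females and 6.50, 6.50 and 6.49 in C57BL/6J males. It was at 6.99, 6.66 and 6.66 in KK females and 6.75, 6.73 and 6.87 in KK males, again with no overlap of the strains. Thra was 1.21-fold higher in KK (0.28, SE 0.07, limma, adjusted p 0.0215). Rara and Thra were the only 2 of the 44 whose strains did not overlap, which 5.98% of all probe sets reached, and both calls held in every alternative run. Thrb, the thyroid hormone receptor that predominates in liver, lay at 7.13 ± 0.14 and 7.20 ± 0.12 in C57BL/6J females and males and at 7.38 ± 0.11 and 7.38 ± 0.19 in KK (SD, n = 3). Its strain difference of 0.22 was not called (limma, adjusted p 0.0918). It passed the threshold after quantile (0.0199) or cyclic loess (0.0316) normalization, with array weights (0.0179) or the array spread covariate (0.00236), and without KK male 2 (0.0274). Rarg had group means of 5.82 to 6.05 and was called with array weights between the strains in males and between the sexes in KK, and Vdr, the vitamin D receptor, had means of 4.51 to 4.72.

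Genes that make, carry and degrade the ligands of these receptors moved in both directions. Of all probe sets 5.42% rose and 6.31% fell in KK over both sexes, and 2.57% fell in males over both strains. Of 19 retinoid handling genes, Aldh1a7 (0.47) and Aldh1a1 (0.20), retinaldehyde dehydrogenase relatives, rose in KK over both sexes, while Retsat (-0.73), retinol saturase, Rdh10 (-0.57), a retinol dehydrogenase, and Stra6l (-0.21), a receptor for retinol-binding protein, fell. The list's median difference was 0.05 against 0.01 over all probe sets. In males Rdh16, another retinol dehydrogenase, fell by 0.42 over both strains, a call lost without C57BL/6J female 3 or KK female 1, while the count was 2 without C57BL/6J female 1. Cyp26a1, the retinoic acid hydroxylase, and Lrat, which esterifies retinol, were singled out after their values were seen. KK male 3, which had the highest Rarb of the KK mice, had a Cyp26a1 value of 8.96 and the highest Lrat, 7.61. The other 11 mice had Cyp26a1 values of 5.33 to 6.89, among them C57BL/6J female 3, which had the highest Rarb of all, 7.19. Of the 19 genes, KK male 3 had the highest value in 3 and KK male 2 in 4. Whether Rarb and these genes vary together was not tested. No comparison of Cyp26a1 was called, with a strain difference in males of 1.15 (SE 0.59, limma, adjusted p 0.359). Of 9 thyroid hormone handling genes, Thrsp (1.42), a thyroid-responsive regulator of lipogenesis, and Crym (0.68), a thyroid hormone-binding protein, rose in KK, and Dio1 (-0.37), the type 1 deiodinase, and Slc16a10 (-0.27), an iodothyronine transporter, fell. The count that fell was 1 without any one of 9 arrays, namely any KK female, and replicate 1 or 3 of each other group.

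**Figure D3:**
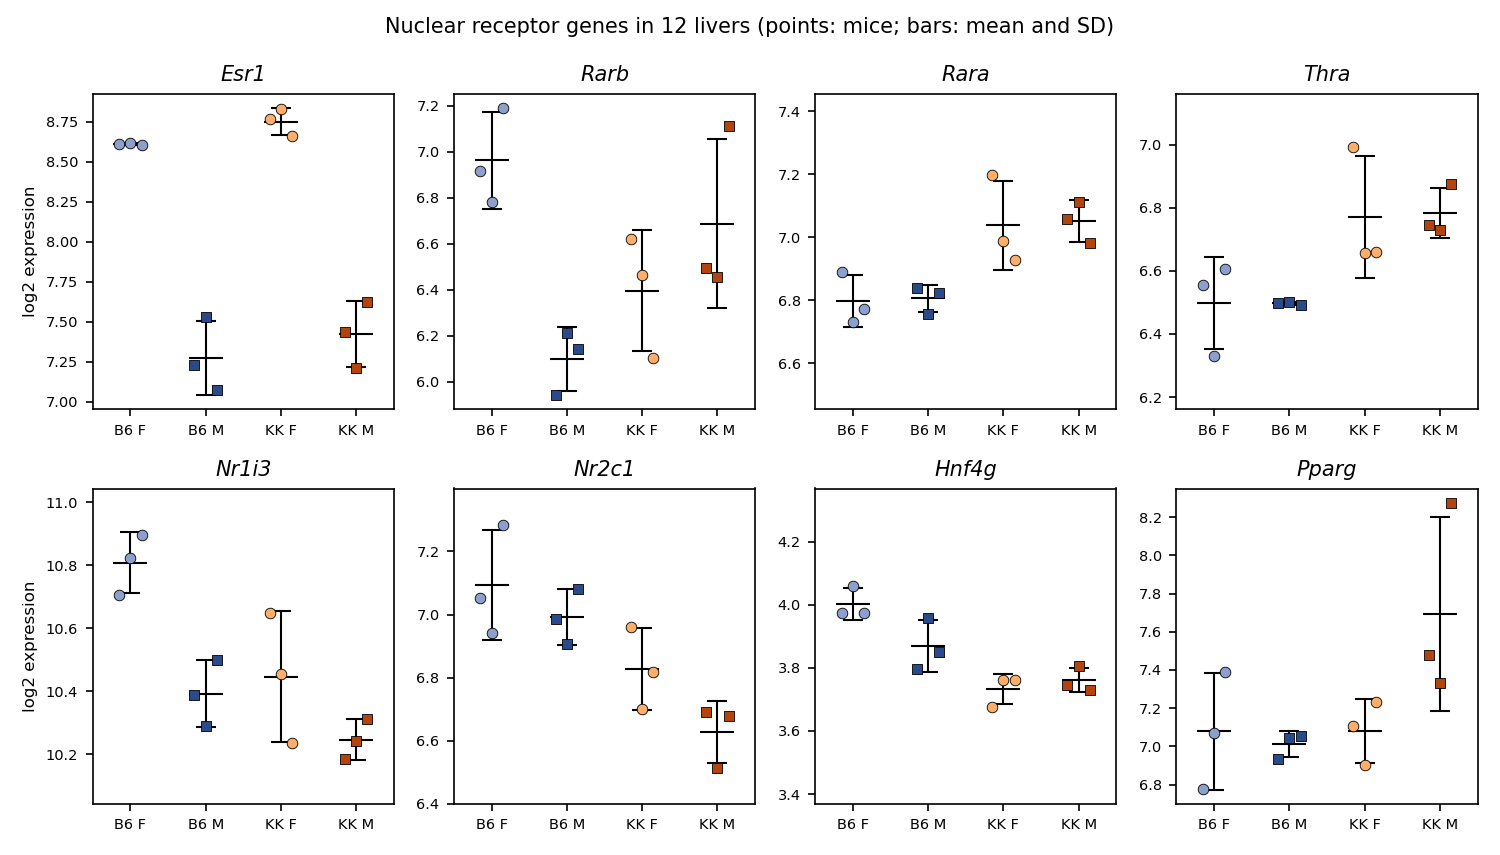
Log2 expression, in each of the 12 mice, of the receptors called in at least 1 comparison and of Pparg, which was not called. Points are mice, with mean and SD over the 3 mice of a group. Esr1 separates females from males in both strains, while Rara and Thra separate KK from C57BL/6J.

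Stellate cells store the liver's retinoid. The mean level of 10 of their markers was 7.02 to 7.52 in all arrays. Of these Rgs5 rose and Col3a1 fell in KK, and Dcn fell in males. Their part in the values of Rarb and the retinoid genes was not tested.

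The retinoid X receptors, the common partners, were not called in any comparison. Rxra, the main one in hepatocytes, had group means of 9.71 to 9.92 and a strain difference of 0.13 (95% interval -0.02 to 0.28). Rxrb had means of 7.12 to 7.19, and Rxrg 5.54 to 5.84.

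Among the fatty acid receptors, no difference in Ppara was called, and 13 of 26 PPAR targets were called between the strains, beside 11.7% of all probe sets. Ppara, which drives fatty acid oxidation in fasting, lay at 9.98 ± 0.16 and 10.05 ± 0.21 in C57BL/6J females and males and at 10.14 ± 0.09 and 10.05 ± 0.04 in KK (SD, n = 3). The strain difference was 0.08 (95% interval -0.08 to 0.25) and the sex difference over both strains was -0.01 (95% interval -0.17 to 0.16). Ppard had group means of 6.17 to 6.39 and a strain difference of 0.16 that was not called (limma, adjusted p 0.061). It passed after quantile (0.0422) or cyclic loess (0.0376) normalization, with array weights (0.00853) or the array spread covariate (0.0321), and without KK female 1 (0.0325) or KK male 3 (0.0241). Pparg, the receptor of adipocyte differentiation that also promotes lipid storage in fatty liver, was not called either. C57BL/6J females had 6.78, 7.07 and 7.39 and C57BL/6J males 6.93, 7.05 and 7.06. KK females had 7.11, 6.90 and 7.23, and KK males 7.48, 7.33 and 8.28. The 3 KK males lay above the C57BL/6J males and above the KK females, but overlapped C57BL/6J female 3. The strain difference of Pparg in males was 0.68 (SE 0.21, limma, adjusted p 0.0995) and the sex difference in KK 0.61 (limma, adjusted p 0.189), and neither was called. KK male 3 carried much of it, since the strain difference in males was 0.39 without that mouse. The difference in males passed the threshold after quantile normalization (adjusted p 0.0443) and with the array spread covariate (0.00884). That covariate also brought Pparg past the threshold between the sexes in KK (limma, adjusted p 0.0258) and between the strains over both sexes. The mean level of 5 adipocyte markers was 5.47 to 5.65 in all arrays, 0 of 5 were called in any comparison, and Adipoq and Lep were within the level of absent transcripts.

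Of 26 PPAR targets, 9 fell and 4 rose in KK over both sexes, beside 6.31% and 5.42% of all probe sets. The share of all probe sets that fell in males over both strains was 2.57%. The targets that fell in KK were led by Vnn1 (-3.90), a pantetheinase, and the fatty acid omega-hydroxylases Cyp4a14 (-3.94), Cyp4a10 (-2.23) and Cyp4a31 (-1.85). These hydroxylases share sequence, so that a probe may read more than one of them. Mogat1, a monoacylglycerol acyltransferase of triglyceride synthesis, rose by at least 1.47, and Acaa1b, Cidec and Pex11a by 0.26, 0.24 and 0.32. The count that rose was 1 without KK female 1 or 2 or C57BL/6J female 1, and 2 without KK male 3 or C57BL/6J male 1 or 2. In males over both strains 9 fell, led by Cyp4a14 (-3.45), Cyp4a10 (-1.75), Cyp4a31 (-1.47) and Acot2 (-0.64), an acyl-CoA thioesterase. Mogat1 rose by 0.44 in that comparison. Within C57BL/6J 3 were called lower in males and within KK 10, beside 0.674% and 1.47% of all probe sets. The test of the interaction was passed by 1 of the 26 upward and 2 downward, beside 0.141% of all probe sets. Mogat1 stood at 6.22, 6.18 and 6.43 in KK males, at 5.26, 5.43 and 5.32 in KK females and at 4.18 to 4.60 in the 6 C57BL/6J mice. The C57BL/6J values lie within the level of absent transcripts, so its strain differences are lower bounds and the interaction compares differences from that level. Its sex difference over both strains likewise averages in that pair of C57BL/6J groups. The strain difference as measured was larger in males by 1.0 (SE 0.15, limma, adjusted p 0.0184). Cyp4a10 and Cyp4a14 had strain differences that were more negative in males, by -2.39 and -4.33 (limma, adjusted p 0.00486 and 0.00548).

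**Figure D4:**
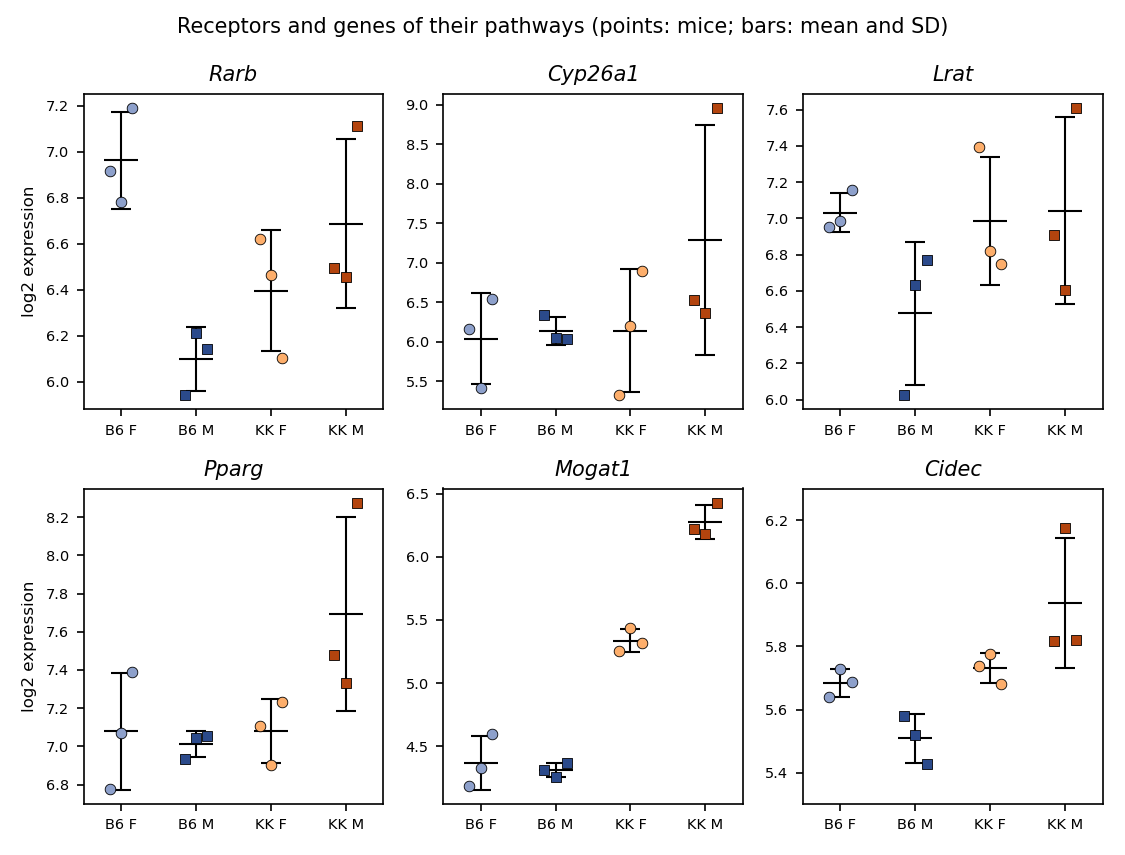
Log2 expression in each of the 12 mice of Rarb with Cyp26a1 and Lrat (top) and of Pparg with Mogat1 and Cidec (bottom). Points are mice, with mean and SD over the 3 mice of a group. KK male 3 has the highest value of Cyp26a1, Lrat and Pparg, while Mogat1 is high in all 3 KK males.

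The bile acid and oxysterol receptors were not called in any comparison of the fit with equal weights. Nr1h4 encodes FXR, the bile acid sensor, and had group means of 9.43 to 9.79. Its difference between the sexes was 0.14 in C57BL/6J and -0.36 in KK (limma, adjusted p 0.972 and 0.252), and the latter was called with array weights. Nr0b2 encodes SHP, the repressor that FXR induces, and varied most of the 44. It ran from 7.03 in KK male 2 to 8.93 in C57BL/6J male 2, a range of 1.90. The KK males alone spanned 8.73, 7.03 and 7.83, so the strain difference of -0.44 had a wide interval (-1.02 to 0.14, limma, adjusted p 0.394). Ranges over 1 were found in Nr0b2, Esr1, Pparg and Rarb only, and the median range of the 44 was 0.44. Nr1h3, which encodes LXR alpha, the oxysterol sensor, had means of 9.25 to 9.46, and Nr5a2, or LRH-1, which activates bile acid synthesis, 8.63 to 8.79. Nr1h5, a pseudogene in humans, was within the level of absent transcripts.

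Of 13 FXR and SHP targets, a list that holds Nr0b2 itself, 4 fell in KK and 0 rose, beside 6.31% and 5.42% of all probe sets. Abcb11, the canalicular bile salt export pump, had values of 12.17 to 12.43 in the 6 C57BL/6J mice, 11.57, 11.46 and 11.37 in KK females and 11.17, 11.06 and 11.15 in KK males. It fell by 1.01 (limma, adjusted p 9.36e-08). Slc27a5, which activates bile acids with coenzyme A, fell by 0.64, Baat, which conjugates them to taurine, by 0.24, and Fetub, a secreted protease inhibitor, by 0.44. In males over both strains Abcb11 fell by 0.24, a call lost without any one of KK male 2, KK female 1, C57BL/6J male 3, or C57BL/6J female 1 or 2, while the count was 2 without KK female 3. Of 11 LXR targets, the sterol exporter genes Abcg5 and Abcg8 fell in KK by 0.85 and 0.86, and Scd1, the stearoyl-CoA desaturase, rose by 0.55. The count that rose was 2 without KK female 3 or KK male 1. In males over both strains 5 of the 11 fell, beside 2.57% of all probe sets. The leading 4 were Abcg5 (-0.44), Smpdl3a (-0.41), a phosphodiesterase, Pltp (-0.64), the phospholipid transfer protein, and Cd5l (-1.0), a secreted macrophage protein. The count was 3 without KK male 1 or 2, or replicate 1 or 3 of either C57BL/6J sex. Within the strains, 4 of the 11 were called lower in males in KK and 0 in C57BL/6J. Over all probe sets the shares lower in males were 1.47% and 0.674%. The list's median sex difference was -0.34 in KK and -0.23 in C57BL/6J. The test of the interaction was passed by 0 of the 11, beside 0.141% of all probe sets. Kupffer cell markers differed as well. Of 8 measured, 7 fell in males over both strains and 3 fell in KK. Within the strains, 7 were called lower in males in KK and 0 in C57BL/6J, and 0 passed the test of the interaction. Their mean level was 7.49 to 7.89 in KK males, 8.38 to 9.13 in KK females, 8.51 to 8.68 in C57BL/6J females and 7.95 to 8.62 in C57BL/6J males. Cd5l is in both lists. Of 9 sinusoidal endothelial markers, 3 fell in males and 2 in KK. Their part in the changes of the LXR targets was not tested.

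Of the xenobiotic receptors, Nr1i3 was lower in KK and in males. Nr1i3 encodes CAR, which induces drug-metabolising enzymes, and lies on chromosome 1 from 171213934 to 171218845. C57BL/6J females had the highest values, 10.70, 10.82 and 10.90, and C57BL/6J males had 10.39, 10.29 and 10.50. KK females had 10.65, 10.45 and 10.24, and KK males 10.18, 10.24 and 10.31. The 3 C57BL/6J females lay above the other 9 mice, among which the groups overlapped. Nr1i3 fell by 0.25 in KK (SE 0.07, limma, adjusted p 0.0369) and by 0.31 in males (limma, adjusted p 0.0332). Both calls were close to the threshold. The strain call was lost after quantile normalization (adjusted p 0.123) and cyclic loess (0.072), and without any one of KK male 1 or 2, KK female 2 or 3, C57BL/6J male 1 or 3, or C57BL/6J female 2 or 3 (0.0655 to 0.0898). The sex call was lost without any one of KK male 1 or 2, KK female 1 or 2, C57BL/6J male 1 or 2, or C57BL/6J female 2 or 3 (0.0574 to 0.0871), and with array spread as a covariate (0.0542). Nr1i2, which encodes PXR, had means of 9.21 to 9.39 and was not called.

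Of 19 CAR and PXR targets, 9 fell and 3 rose in KK, beside 6.31% and 5.42% of all probe sets. In males over both strains 2.57% of all probe sets fell. Ces2a (-1.94), a carboxylesterase, Slco1a4 (-2.61), an organic anion transporter, Cyp2b13 (-2.57) and Cyp2c37 (-1.20) led those that fell. Cyp2b13 was at 9.99 ± 0.09 in C57BL/6J females and 4.88 ± 1.02 in KK females (SD, n = 3), while the males of both strains, at 3.74 ± 0.09 and 3.71 ± 0.03 (SD, n = 3), lay within the level of absent transcripts. Its strain difference was -5.1 in females and -0.03 in males (limma, adjusted p 0.981), so the difference over both sexes averages in a pair of groups at that level. Alas1 (1.13), the first enzyme of heme synthesis, Gstm3 (0.77), a glutathione transferase, and Cyp3a11 (0.23) rose. In males over both strains 5 fell, led by Cyp2b9 (-5.86), Cyp2b13 (-3.71, a lower bound on the size), Abcb1a (-1.07) and Slco1a4 (-1.28), and Ces2a rose by 0.50, a count of 1 that became 2 without C57BL/6J male 3. Cyp2b9 stood at 12.31, 12.30 and 12.11 in C57BL/6J females, 11.49, 11.22 and 8.95 in KK females, and 5.09 to 6.33 in the 6 males. The Cyp2b genes are close copies, and a probe may read more than one of them. The interaction for Cyp2b13 was 5.08 (limma, adjusted p 0.000912).

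Of the HNF4 and other NR2 receptors, Nr2c1 and Hnf4g fell in KK. Nr2c1 encodes testicular receptor 2, an orphan receptor without a settled ligand, and lies on chromosome 10 from 94147542 to 94197216. C57BL/6J females had 7.05, 6.94 and 7.28 and C57BL/6J males 6.99, 6.91 and 7.08. KK females had 6.96, 6.70 and 6.82, and KK males 6.69, 6.51 and 6.68. The strains overlapped only through KK female 1. Nr2c1 fell by 0.32 in KK, a 1.25-fold difference (SE 0.07, limma, adjusted p 0.0109), and the call held in all alternatives run, with adjusted p of 0.00738 to 0.0302 when 1 array was left out. Its partner Nr2c2 had means of 7.66 to 7.90 and was called between the strains only after quantile normalization or with the array spread covariate. Hnf4g, a relative of Hnf4a expressed mainly in gut, fell by 0.19 in KK (limma, adjusted p 0.0164). Its values were 3.97, 4.06 and 3.97 in C57BL/6J females, 3.80, 3.96 and 3.85 in C57BL/6J males, 3.68, 3.76 and 3.76 in KK females and 3.75, 3.80 and 3.73 in KK males. All 12 lay at or below the highest Y-linked value of the female arrays, and 5 KK values lay below the lowest, so this is a difference between values at that level. In females it fell by 0.27 (limma, adjusted p 0.026), a call lost without any 1 of the 6 female arrays (0.0518 to 0.103).

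Hnf4a, the central transcription factor of the hepatocyte, had group means of 10.81 to 10.98 and a strain difference of -0.02 (95% interval -0.17 to 0.13). Nr2f1 and Nr2f2, the COUP transcription factors, had means of 4.74 to 4.80 and 7.98 to 8.15, Nr2f6, called between the strains only with array weights, 7.89 to 8.09, and Nr2e1 4.85 to 4.93. Of 15 HNF4A targets, 5 fell and 3 rose in KK, beside 6.31% and 5.42% of all probe sets. Those that fell were led by Apoa1 (-0.34), the main protein of high-density lipoprotein, Ces1c (-0.32) and the coagulation factor F7 (-0.24). Those that rose were Pklr (0.50), the liver pyruvate kinase, Apob (0.22) and Cyp2d9 (0.78). The count that fell was 3 without any one of the 3 C57BL/6J females, KK female 2, or KK male 1 or 2. In males over both strains Cyp2d9 rose by 2.10 and Apoa1 by 0.20, and F7 and Ces1c fell by 0.39 and 0.33 (3.66% of all probe sets were called). The count that rose was 1 without any 1 of the 12 arrays other than C57BL/6J female 3.

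The clock receptors, which repress (Nr1d2) or activate (Rora, Rorb) the core clock genes, were not called, except Nr1d2 between the sexes over both strains with the array spread covariate. Their means were 9.60 to 9.84, 8.80 to 8.91 and 4.82 to 4.95. Of 15 clock genes, Bhlhe41 and Per2 rose in KK by 0.47 and 0.38, and Elovl3 and Dbp rose in males by 2.58 and 0.54. Of all probe sets 11.7% were called between the strains and 3.66% between the sexes. The time of day of the killing was not in the labels. The estrogen-related receptors, which bind no estrogen and regulate mitochondrial genes, were not called in the fit with equal weights either, with Esrra at 6.98 to 7.31, Esrrb at 4.66 to 4.92 and Esrrg at 6.38 to 6.60. With array weights Esrra was called between the strains in males and between the sexes in KK and over both strains, Esrrb between the sexes in KK and Esrrg between the sexes over both strains. Nor were the immediate-early NR4A receptors, with Nr4a1 at 4.93 to 5.01, Nr4a2 at 4.67 to 4.91 and Nr4a3 at 4.02 to 4.16, the last within the level of absent transcripts. Of 14 genes of the same immediate-early kind, Sik1, a salt-inducible kinase, rose in KK by 0.40 and Egr1, a zinc finger factor, fell by 1.04. The count that rose was 2 without C57BL/6J female 1 or KK female 3 and 3 without KK male 2, and the count that fell was 2 without C57BL/6J female 2. Nr5a1, the steroidogenic factor of adrenal and gonad, had means of 6.21 to 6.50, Nr6a1, the germ cell nuclear factor, 6.70 to 6.75, and Nr0b1, an adrenal and gonadal repressor, 4.14 to 4.19, within the level of absent transcripts. A total of 5 receptors stayed within that level in all groups, namely Nr0b1, Nr1h5, Nr4a3, Hnf4g and Esr2.

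Coregulators are the proteins through which receptors act, and 5 of 22 rose in KK over both sexes while 0 fell, beside 5.42% and 6.31% of all probe sets. In females alone 5 rose and in males alone 1, where 6.5% and 5.15% of all probe sets were called. The test of the interaction was passed by 0 of the 22, beside 0.141% of all probe sets. The 5 over both sexes included Smarca4 (0.35), the ATPase of a chromatin remodelling complex, and the steroid receptor coactivators Ncoa1 (0.38) and Ncoa2 (0.31). The others were the histone methyltransferase Nsd1 (0.29) and the acetyltransferase Crebbp (0.30). The count was 3 without KK male 3, KK female 1, C57BL/6J male 1 or C57BL/6J female 2, and the count that fell was 1 without C57BL/6J female 2. The list's median difference was 0.09, against 0.01 over all probe sets. In males over both strains Ppargc1a, the coactivator PGC-1 alpha that responds to fasting, fell by 0.50 (limma, adjusted p 0.013). Its values were 6.77, 6.76 and 6.80 in C57BL/6J females, 6.69, 6.28 and 6.48 in C57BL/6J males, 7.14, 7.18 and 6.66 in KK females and 6.38, 6.16 and 6.35 in KK males. The sexes overlapped only through KK female 3 and C57BL/6J male 1.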

How the data were processed

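Expression was measured with 1 array per mouse in 12 livers. The deposited values are log2 expression values, made by the authors with RMA and the affy package per the submitters' processing notes, whose versions are not given in the sources used here. Scanner files were not used here, so detection calls and single probes were not examined. Probe sets were named from the platform's annotation, checked by Entrez identifier against RefSeq (GRCm38.p6), and all 44 receptor genes were found there. Promoter windows were RefSeq's, with 40 of the 44 genes matched.

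A single limma model (version 3.58.1, under R 4.3.3) with 1 mean per group was fitted to all probe sets, with moderated two-sided tests. P-values were adjusted by Benjamini and Hochberg over all 21212 probe sets in each of 7 comparisons. SE is that of the fit, SD is over 3 mice, and the number of arrays limits the precision. The replicates are labelled as 3 females and 3 males per strain. The pipeline was tested on simulated data. The receptors and the 13 lists of related genes were chosen with earlier results of these data known. Receptors called in at least 1 comparison are given per mouse, and up to 4 called genes each way with the smallest adjusted p are named from each list. Scaling, filter, prior, array weights, replicate block, a covariate for array spread, the samples fitted and each array left out were alternatives.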

Additional observations from a re-analysis of the deposited data

Results flagged for a closer look

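Rarb stood out because the strain difference ran in opposite directions in the 2 sexes, with every KK female below every C57BL/6J female and every KK male above every C57BL/6J male. The difference between KK and C57BL/6J was -0.57 in females and 0.59 in males. The difference between these effects was tested and gave 1.16, with an unadjusted p of 0.000685 and an adjusted p of 0.194 by limma, so it did not pass over all probe sets.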

How the results depend on the processing

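The calls of Esr1 between the sexes and of Rara, Thra and Nr2c1 between the strains over both sexes held in every alternative run. That of Hnf4g held in each alternative that tested it, but the filter for probe sets above the median left Hnf4g out. Array weights changed the number of receptors called between the strains from 5 to 8 over both sexes, in females from 1 to 3 and in males from 0 to 5, and between the sexes from 1 to 6 in KK and from 2 to 4 over both strains. Array spread (the interquartile range) as a covariate gave 9 over both sexes, 5 in females alone and 5 in males alone for the strains, 2 for the sexes in KK, and 1, Rarb, for the interaction of strain and sex. In females, 1 probe set per gene gave 2, an intensity trend with a robust prior gave 2, and a fit of only the groups compared gave 0. In males, quantile normalization gave 2, cyclic loess 1 and only probe sets above the median 1. The causes were not tested. With 1 array left out the counts ranged from 4 to 6 over both sexes, 0 to 2 among females and 0 to 1 among males for the strains. For the sexes they ranged from 1 to 3 in C57BL/6J, 1 to 1 in KK and 1 to 2 over both strains, and for the interaction from 0 to 0. The interaction for Esr1, 0.00, changed sign to -0.0114 with array weights and ranged from -0.10 to 0.13 with 1 array left out.

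Equal replicate numbers were not taken as pairs, since the labels name nothing that same-numbered mice shared and not every pair deviated together. Of 18 same-numbered pairs, 10 deviated from their group means together with r over 0.1, and the range was -0.356 to 0.477. Pairs with different numbers ranged from -0.506 (KK female 2 with KK male 3) to 0.482 (KK female 1 with KK male 3). Of 12 arrays, 8 correlated best with their own number, a hint from the data of some shared variation, whose source was not tested. With the replicate number as a block, 2 receptors were called between the strains in males, Pparg with an adjusted p of 0.0253 and Nr2c1, and 1 between the sexes in C57BL/6J, with Rarb at 0.0576.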
